A study of Mus musculus with 12 samples.

Results

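Lysosome and autophagy genes were examined in cultures of B16-OVA, a melanoma line of the mouse that expresses ovalbumin as a model antigen, treated with an inhibitor of the kinase MEK. The set was chosen by gene name and function, with earlier results of these data known. It holds 43 genes: 19 hydrolases, 2 lumenal cofactors, 6 membrane proteins, 5 subunits of the proton pump and 11 autophagy genes. Each gene was read from the probe set that the array annotation pairs with that gene alone, taking the brightest where there were several, which gave values for 42 members among 18193 genes. Cd63 had no such probe set and was not analysed here. RNA was measured on 12 Affymetrix arrays of the mouse genome, 3 in each of 4 groups. Cells of the same line received 100 nM GDC-0623 (MEKi) or its solvent DMSO and were harvested 24 h or 72 h after addition. No group differed in genotype. The 3 arrays of a group are named biological replicates in the series text. Whether each came from its own culture is not stated, and the p-values therefore cover the spread among these arrays, some of which may be technical.

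The lysosome is the acidic organelle in which proteins, lipids and glycans are broken down. A proton pump, the V-ATPase, acidifies its lumen, hydrolases and their cofactors do the breakdown, and autophagosomes bring it parts of the cytoplasm. Many of these genes carry a CACGTG element near their start, which is bound by the MiT/TFE family of transcription factors, among them TFEB, TFE3 and MITF, and MITF is the lineage factor of pigment cells, whose melanosomes are related to lysosomes.

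Values are log2 signals after RMA, a normalization that makes the arrays' distributions alike, and they serve for comparing 1 gene between groups, not 1 gene with another. A gene is called higher or lower where its limma adjusted p (Benjamini-Hochberg over 45037 probe sets) was under 0.05, and errors after a log2 difference are standard errors. The array medians lay between 5.31 and 5.42, and 41 of the 42 members had a mean above 5.36, the mean of the median probe set. The exception was Ctss. Precision is limited by the number of arrays. The bulk RNA cannot tell fewer cells that use a gene from less RNA per cell. The markers of pigment cells were bright, with 7 of 7 above the median probe set, while of the macrophage and leukocyte markers 5 of 12 were above it. On the same arrays the ERK feedback genes Dusp6 and Spry4 fell with MEKi, by 1.41 ± 0.17 and 2.08 ± 0.13 on the log2 scale at 24 h (adjusted p = 0.00401 and 0.000517) and by 1.29 ± 0.12 and 0.58 ± 0.15 at 72 h (adjusted p = 0.000671 and 0.0452).

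After 24 h of MEKi, 17 members rose, 1 fell and 24 did not pass the test, while over all genes 5.01% were called higher and 5.86% lower. The members that rose were 9 of 19 hydrolases, 1 of 2 cofactors, 3 of 5 measured membrane proteins, 2 of 5 pump subunits and 2 of 11 autophagy genes, and the one that fell was the autophagy receptor gene Sqstm1. The shares over all genes include dim ones. Among the 22514 probe sets brighter than the median one, 6403 were called in either direction, and 23 members rose and 2 fell. The median log2 difference of the members was 0.23, with 36 of 42 above zero, beside a median of 0.01 over all genes. The changes were small: no member passed 0.60 on the log2 scale. The count of 17 members that rose depended on single arrays. It was 4 without MEKi replicate 1, 5 without MEKi replicate 2, 21 without MEKi replicate 3, and 8, 9 and 7 without DMSO replicates 1, 2 and 3. The calls over all probe sets moved the same way, from 3801 to 1133, 1235, 5091, 1575, 1747 and 1468 in these fits. With the replicate number as a block it was 13, with no member called lower. Summed signals of the pigment cell, fibroblast and endothelial marker lists were also apart at 24 h, while those of the macrophage and leukocyte list overlapped. A list of 7 housekeeping genes overlapped as well, at 58257 to 58504 with DMSO and 58210 to 58664 with MEKi. The pigment cell list lay at 86227 to 87588 with DMSO and 95316 to 98263 with MEKi, the fibroblast list at 184 to 199.9 and 243 to 269, the endothelial list at 122 to 135 and 140 to 179, and the macrophage and leukocyte list at 391 to 406 and 403 to 419. In the last 3 lists 1 of 6, 1 of 6 and 5 of 12 genes were above the median probe set. Their part in the counts was not tested.

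After 72 h of MEKi, 11 members rose and 0 fell, against 4.03% of all genes called higher and 5.14% called lower. They were 4 of 19 hydrolases, 1 of 5 membrane proteins, 3 of 5 pump subunits and 3 of 11 autophagy genes, with 0 of 2 cofactors. Among brighter probe sets alone, 4268 of 22514 were called in either direction, and 15 members rose and 0 fell. The median over the members was 0.19, with 34 of 42 above zero, against 0.01 over all genes. The largest difference was 0.86. Without MEKi replicate 1 the count of 11 became 7, without MEKi replicate 2 it was 6, and without DMSO replicate 1 it was 7. Over all probe sets 3260 were called, and 1623, 1383 and 1566 in these fits. In 72 h arrays the fibroblast list summed to 142 to 202 with DMSO and 143 to 154 with MEKi, and the macrophage and leukocyte list to 438 to 493 and 432 to 462. The comparisons at 24 h and at 72 h share no arrays. The genes that rose at both times were 5, Ctsd, Neu1, Mcoln1, Atp6v0e and Map1lc3a, which is 29.4% of the 17 and 45.5% of the 11. How many of all genes rose at both times was not counted, so these shares have no background beside them. Only Neu1 kept both calls with any 1 array left out.

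**Figure D1:**
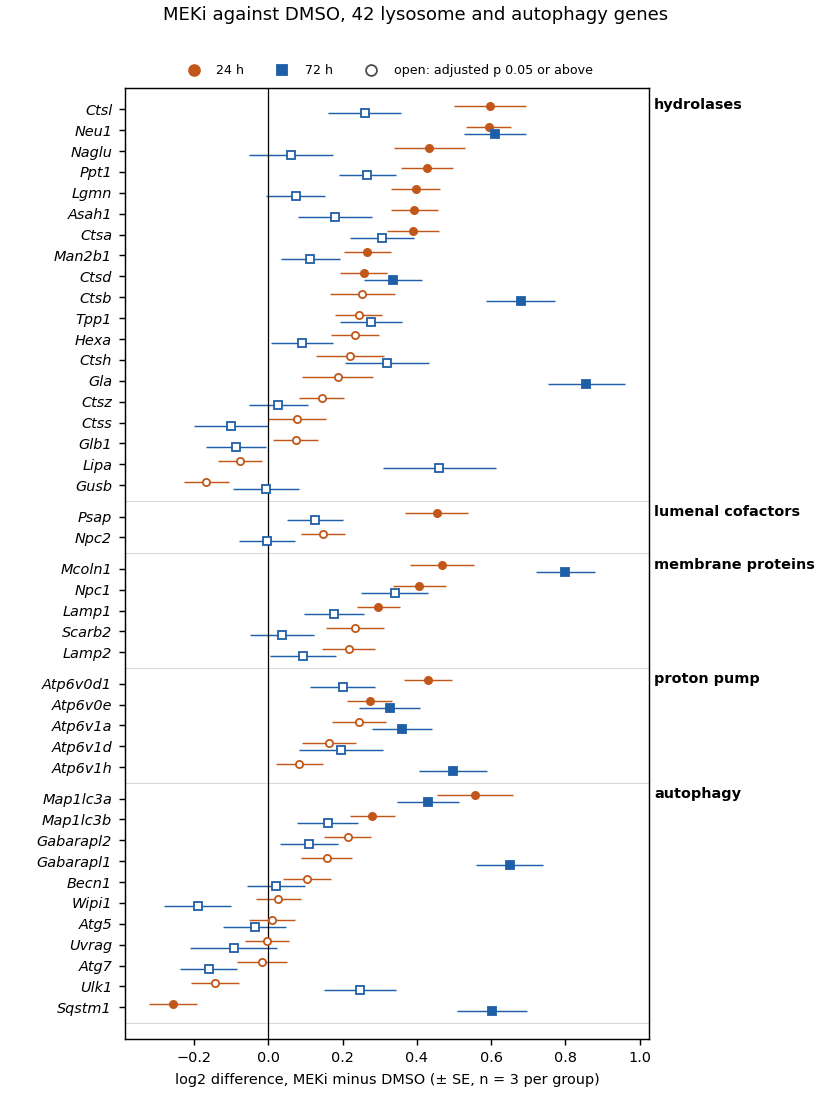
Log2 difference of MEKi minus DMSO (x axis, ± standard error, 3 arrays per group) for each of the 42 measured members, grouped by role, at 24 h and at 72 h; filled symbols passed the adjusted p threshold of 0.05. At 24 h 36 of the 42 symbols and at 72 h 34 lie right of zero, Sqstm1 lies left of it at 24 h and right of it at 72 h, and Gla reaches 0.86 at 72 h.

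The promoters of the members were searched for motifs as a description. Windows of 250 bases before and 50 bases after the gene start (RefSeq, GRCm38.p6) were given for 36 of the 43 members. They were searched for TCACGTGA, for the shorter CACGTG, which lies inside it, and for TGANTCA, the AP-1 motif of FOS and JUN proteins, which act downstream of ERK. Each of the 3 reads the same on both strands. TCACGTGA was found in 7 members (19.4%), Ctsa, Ctsd, Gla, Mcoln1, Atp6v0d1, Atp6v0e and Atp6v1a, against 1.63% of the 14452 measured genes with a window and 0.974% of all 32851 windows. CACGTG was found in 14 members (38.9%) against 10.2% and 7.15%, and TGANTCA in Glb1, Neu1 and Psap (8.33%) against 7.54% and 7.81%. A match of letters is a description, not a bound site. The stretches that hold TCACGTGA are shown, with that motif in capitals, and for Lamp1, whose window had CACGTG 4 times and no TCACGTGA, the capitals mark CACGTG. All read 5′ to 3′ on the strand of the gene.
Ctsa, chr2:164833725-164833784, plus strand: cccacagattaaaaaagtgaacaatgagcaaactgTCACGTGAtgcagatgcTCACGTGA
Ctsd, chr7:142387893-142387952, minus strand: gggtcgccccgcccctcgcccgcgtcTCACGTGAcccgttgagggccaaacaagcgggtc
Gla, chrX:134601190-134601249, minus strand: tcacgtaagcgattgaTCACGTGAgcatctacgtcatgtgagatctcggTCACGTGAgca
Atp6v0d1, chr8:105566053-105566112, minus strand: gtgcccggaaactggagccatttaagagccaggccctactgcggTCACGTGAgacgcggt
Atp6v0e, chr17:26676348-26676407, plus strand: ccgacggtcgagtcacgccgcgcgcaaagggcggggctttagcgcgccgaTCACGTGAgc
Atp6v1a, chr16:44139358-44139417, minus strand: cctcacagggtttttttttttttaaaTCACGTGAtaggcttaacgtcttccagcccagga
Mcoln1, chr8:3500269-3500518, plus strand: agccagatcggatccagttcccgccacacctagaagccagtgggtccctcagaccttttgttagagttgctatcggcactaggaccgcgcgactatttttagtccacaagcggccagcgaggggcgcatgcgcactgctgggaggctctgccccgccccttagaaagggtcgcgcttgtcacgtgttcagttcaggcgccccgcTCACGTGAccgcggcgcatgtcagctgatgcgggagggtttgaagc
Lamp1, chr8:13159091-13159160, plus strand: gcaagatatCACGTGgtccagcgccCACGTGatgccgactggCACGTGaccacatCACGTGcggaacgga

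With the gene's first base counted as 0, TCACGTGA began at -13 and 4 in Ctsa, at -99 in Ctsd, at -228 and -195 in Gla, at -46 in Mcoln1, at -4 in Atp6v0d1, at 2 in Atp6v0e and at -132 in Atp6v1a. Of the 7 members with TCACGTGA, 5 rose at 24 h (all but Gla and Atp6v1a) and 5 at 72 h (all but Ctsa and Atp6v0d1). Their median log2 differences were 0.27 and 0.34. Of the 28 other measured members with a window, 9 rose and 1 fell at 24 h, with a median of 0.19, and 3 rose at 72 h, with a median of 0.10. No window was given for Ctsb, Ctsh, Asah1, Npc1, Atp6v1h, Map1lc3a and Becn1, which are in neither set. Among them Asah1, Npc1 and Map1lc3a rose at 24 h, and Ctsb, Atp6v1h and Map1lc3a rose at 72 h. Over all genes 5.01% were called higher at 24 h and 4.03% at 72 h. The called share among all genes with TCACGTGA was not counted, and no test was made between these sets.

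Among the hydrolases at 24 h, the largest changes were in Ctsl, Neu1 and Naglu. Ctsl encodes cathepsin L, a cysteine protease. It read 11.57, 11.58 and 11.47 with DMSO and 12.21, 12.28 and 11.92 with MEKi at 24 h, so the groups did not overlap and the log2 difference was 0.60 ± 0.10 (adjusted p = 0.0109). At 72 h it read 12.30, 12.17 and 12.51 with DMSO and 12.57, 12.61 and 12.58 with MEKi, a difference of 0.26 ± 0.10 that did not pass (adjusted p = 0.165). The MEKi arrays at 24 h overlapped in level with the DMSO arrays at 72 h.

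Neu1, the sialidase that removes sialic acid from glycoproteins and glycolipids, rose at both times from its brightest probe set. It read 8.75, 8.73 and 8.81 with DMSO and 9.36, 9.39 and 9.32 with MEKi at 24 h, and 9.47, 9.38 and 9.54 with DMSO and 10.09, 10 and 10.13 with MEKi at 72 h. The groups were apart at both times, by 0.59 ± 0.06 (adjusted p = 0.00231) and 0.61 ± 0.08 (adjusted p = 0.00314). The difference of these effects was 0.02 ± 0.10 (adjusted p = 0.963). Its second probe set rose by 0.56 at 24 h (adjusted p = 0.00351) and was at 0.34 at 72 h (adjusted p = 0.0510), its dimmest was called at neither time, and the mean over its 3 probe sets rose by 0.47 and 0.37 (adjusted p = 0.00160 and 0.0105).

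Naglu encodes the enzyme that removes N-acetylglucosamine from heparan sulfate. It read 10.01, 9.96 and 9.86 with DMSO and 10.42, 10.53 and 10.18 with MEKi at 24 h, a rise of 0.43 ± 0.10 (adjusted p = 0.0299). At 72 h the groups overlapped, at 11.07, 10.86 and 11.12 with DMSO and 11.22, 10.87 and 11.14 with MEKi (0.06 ± 0.11, adjusted p = 0.837). The other hydrolases that rose at 24 h were the palmitoyl thioesterase Ppt1 (0.43 ± 0.07), the asparaginyl protease Lgmn (0.40 ± 0.07), the acid ceramidase Asah1 (0.39 ± 0.06), the serine carboxypeptidase Ctsa (0.39 ± 0.07), the alpha-mannosidase Man2b1 (0.27 ± 0.06) and the aspartic protease Ctsd (0.26 ± 0.06), with adjusted p from 0.0102 to 0.0441. Man2b1 and Ctsd were no longer called with the replicate block (adjusted p = 0.0595 and 0.0699), Ctsd also not with arrays centred on their medians (adjusted p = 0.0552), and Ppt1 not from the mean of its probe sets (0.18, adjusted p = 0.0538). The 10 hydrolases that did not pass at 24 h lay between -0.17 for the beta-glucuronidase Gusb and 0.25 for Ctsb.

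At 72 h the hydrolases with the largest called changes were Gla, Ctsb and Neu1. Among the hydrolases only Gla was called for an effect that differed between the times. For Ctsl the difference of the effects was -0.34 ± 0.14 and did not pass (adjusted p = 0.262). Gla encodes alpha-galactosidase A, which cleaves galactose from globotriaosylceramide. It read 8.59, 8.68 and 8.46 with DMSO and 8.78, 8.91 and 8.60 with MEKi at 24 h, where the groups overlapped (0.19 ± 0.09, adjusted p = 0.286). After 72 h the values were 8.16, 8.12 and 7.95 with DMSO and 8.84, 9.12 and 8.84 with MEKi, a rise of 0.86 ± 0.10 or 1.81-fold (adjusted p = 0.00183). The DMSO level at 72 h was the lowest of the 4 groups, and its MEKi level was close to that at 24 h. This holds for the brightest probe set. The second, dim one differed from 24 h to 72 h by 0.24 in DMSO (adjusted p = 0.283) and rose by 0.67 under MEKi (adjusted p = 0.00141).

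Ctsb, the cysteine protease cathepsin B, had the same shape from its brightest probe set. It read 12.48, 12.45 and 12.31 with DMSO and 12.73, 12.77 and 12.50 with MEKi at 24 h (0.25 ± 0.09, adjusted p = 0.125). After 72 h the values were 12.08, 12.06 and 11.95 with DMSO and 12.76, 12.81 and 12.56 with MEKi, a rise of 0.68 ± 0.09 (adjusted p = 0.00303). The groups did not overlap at either time, but only the difference at 72 h passed. From 24 h to 72 h in DMSO the Ctsb probe set second in brightness did not pass (-0.12, adjusted p = 0.347). Dimmer ones fell by 0.88 and 0.67 (adjusted p = 0.00138 and 0.00179). Ctsd rose at 72 h by 0.34 ± 0.08 (adjusted p = 0.0299), and the 15 hydrolases that did not pass lay between -0.10 for Ctss and 0.46 for the acid lipase Lipa, whose DMSO replicate 3 at 72 h read 9.51 beside 10.17 and 10.06.

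Ctss, a cathepsin known from antigen-presenting cells, was below the median probe set in every group. It read 3.42, 3.30 and 3.40 with DMSO and 3.43, 3.34 and 3.58 with MEKi at 24 h, and 3.54, 3.79 and 3.72 with DMSO and 3.72, 3.51 and 3.52 with MEKi at 72 h. The MEKi and DMSO arrays overlapped at both times (0.08 ± 0.08 and -0.10 ± 0.10, adjusted p = 0.629 and 0.651).

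Of the lumenal cofactors, Psap, the precursor of the saposins that help lipid hydrolases reach their substrates, rose at 24 h. It read 11.51, 11.76 and 11.52 with DMSO and 12.02, 12.13 and 12 with MEKi, apart by 0.45 ± 0.08 (adjusted p = 0.0166). At 72 h it read 12.05, 12.02 and 12.05 with DMSO and 12.17, 12.14 and 12.19 with MEKi (0.13 ± 0.08, adjusted p = 0.405). Npc2, which carries cholesterol within the lumen, differed by 0.15 ± 0.06 at 24 h and by -0.00 ± 0.08 at 72 h (adjusted p = 0.176 and 0.990).

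**Figure D2:**
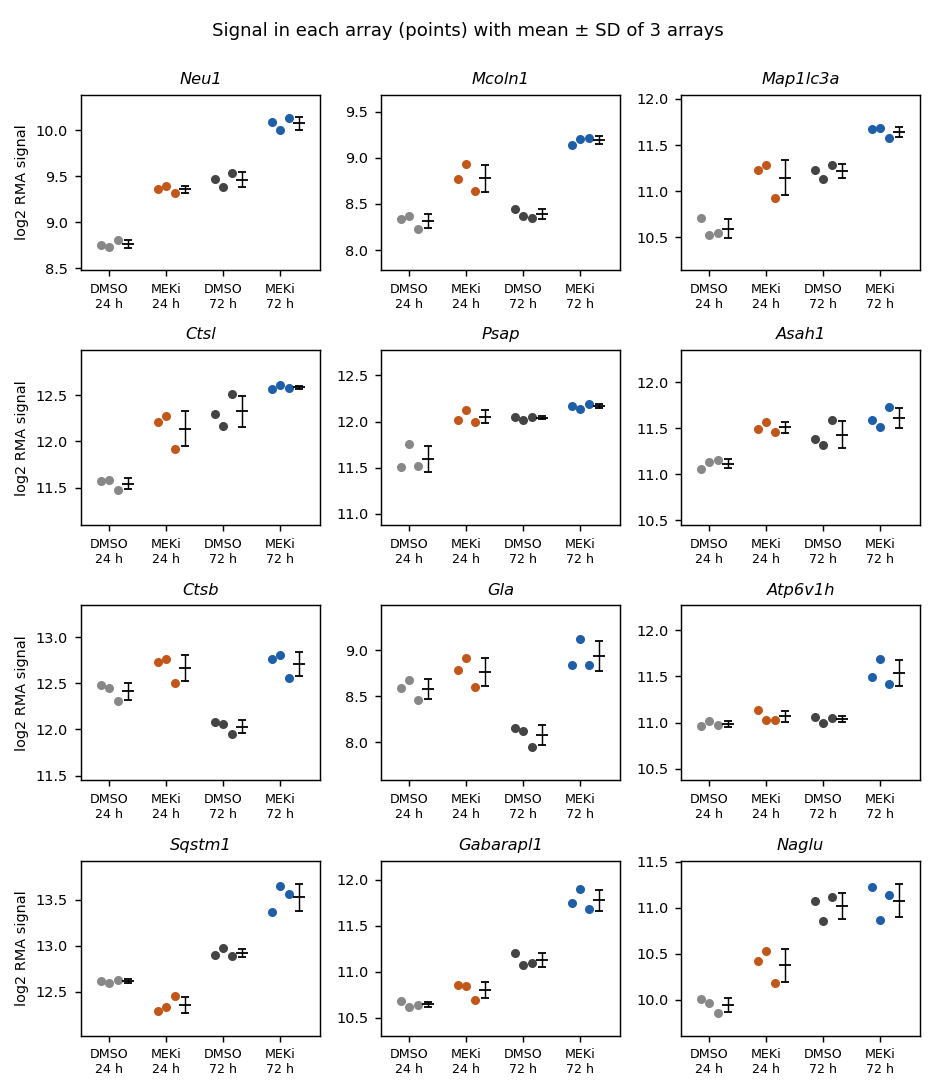
Log2 RMA signal (y axis, own scale in each panel) on each of the 12 arrays for selected members, with the mean and SD of 3 arrays per group (DMSO and MEKi at 24 h and at 72 h). Neu1 is higher with MEKi at both times (0.59 and 0.61), Gla is lowest in DMSO at 72 h, and Sqstm1 is below DMSO at 24 h and above it at 72 h under MEKi.

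All 5 measured membrane proteins had positive differences at 24 h, and Mcoln1, Npc1 and Lamp1 passed. Mcoln1 encodes TRPML1, the channel that releases calcium from the lysosome. It read 8.34, 8.37 and 8.23 with DMSO and 8.77, 8.93 and 8.64 with MEKi at 24 h, and 8.45, 8.37 and 8.35 with DMSO and 9.14, 9.21 and 9.22 with MEKi at 72 h. The groups were apart at both times, by 0.47 ± 0.09 (adjusted p = 0.0159) and by 0.80 ± 0.08 or 1.74-fold (adjusted p = 0.000883). The effects differed by 0.33 ± 0.11, which did not pass (adjusted p = 0.147). A second probe set of Mcoln1 rose by 0.52 and 0.72 (adjusted p = 0.00932 and 0.00145).

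Npc1, which exports cholesterol from the lysosome, read 9.03, 9.02 and 8.93 with DMSO and 9.42, 9.48 and 9.30 with MEKi at 24 h (0.41 ± 0.07, adjusted p = 0.0130). At 72 h the groups still did not overlap, at 8.94, 8.84 and 9.05 with DMSO and 9.38, 9.24 and 9.23 with MEKi, but the difference of 0.34 ± 0.09 missed the threshold (adjusted p = 0.0506). Lamp1, the abundant glycoprotein that lines the membrane, read 12.52, 12.49 and 12.52 with DMSO and 12.79, 12.84 and 12.79 with MEKi at 24 h (0.30 ± 0.06, adjusted p = 0.0191). At 72 h Lamp1 differed by 0.18 ± 0.08 (adjusted p = 0.258).

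Lamp2, the receptor of chaperone-mediated autophagy, and Scarb2, the transport receptor of glucocerebrosidase, did not pass from their brightest probe sets at either time. Their differences were 0.22 ± 0.07 and 0.23 ± 0.08 at 24 h and 0.09 ± 0.09 and 0.04 ± 0.09 at 72 h. Dimmer probe sets of the same genes rose at 72 h, by 0.55 and 0.45 for Lamp2 (adjusted p = 0.00383 and 0.0301) and by 0.64 for Scarb2 (adjusted p = 0.00243).

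The proton pump has a membrane part, V0, through which protons pass, and a cytosolic part, V1, which splits ATP. The V0 subunits Atp6v0d1 and Atp6v0e rose at 24 h. Atp6v0d1 read 12.05, 12.05 and 12.01 with DMSO and 12.48, 12.54 and 12.38 with MEKi, a difference of 0.43 ± 0.07 (adjusted p = 0.00839). After 72 h the values were 11.95, 11.95 and 12.16 with DMSO and 12.21, 12.20 and 12.25 with MEKi (0.20 ± 0.09, adjusted p = 0.237).

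Atp6v0e read 12.09, 12.14 and 12.10 with DMSO and 12.39, 12.43 and 12.33 with MEKi at 24 h, and 11.95, 12.01 and 11.84 with DMSO and 12.22, 12.30 and 12.26 with MEKi at 72 h. It rose by 0.27 ± 0.06 and 0.33 ± 0.08 (adjusted p = 0.0299 and 0.0431), with no overlap at either time. The call at 24 h was lost with the replicate block (adjusted p = 0.0520), and that at 72 h with arrays centred on their medians (adjusted p = 0.0593).

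The V1 subunits Atp6v1h and Atp6v1a rose at 72 h from their brightest probe sets. Atp6v1h read 10.96, 11.02 and 10.97 with DMSO and 11.14, 11.03 and 11.03 with MEKi at 24 h (0.08 ± 0.06, adjusted p = 0.490). After 72 h its arrays read 11.06, 11 and 11.05 with DMSO and 11.49, 11.69 and 11.42 with MEKi (0.50 ± 0.09, adjusted p = 0.0113), while the mean over its probe sets, of which the other 2 are dim, differed by 0.27 (adjusted p = 0.0607). The difference of these effects was 0.41 ± 0.11 (adjusted p = 0.0588). Atp6v1a, the catalytic subunit, read 11.45, 11.60 and 11.47 with DMSO and 11.67, 11.84 and 11.74 with MEKi at 24 h (0.24 ± 0.07, adjusted p = 0.0816), and 11.63, 11.48 and 11.56 with DMSO and 11.92, 11.95 and 11.88 with MEKi at 72 h (0.36 ± 0.08, adjusted p = 0.0265). Its effects were not called different (0.12 ± 0.10, adjusted p = 0.668), and its second probe set rose at both times, by 0.25 and 0.37 (adjusted p = 0.0347 and 0.0186). Atp6v1d did not pass from its brightest probe set at either time (0.16 ± 0.07 and 0.20 ± 0.11), while a dimmer one rose at 24 h by 0.26 (adjusted p = 0.0338). The V1 calls are thus not limited to 72 h.

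The called autophagy genes encode ubiquitin-like proteins that coat the autophagosome membrane (Map1lc3a, Map1lc3b and Gabarapl1) and a cargo receptor that binds them (Sqstm1). Map1lc3a, which encodes LC3A, read 10.71, 10.52 and 10.54 with DMSO and 11.23, 11.28 and 10.93 with MEKi at 24 h, and 11.23, 11.13 and 11.28 with DMSO and 11.67, 11.68 and 11.58 with MEKi at 72 h. It rose by 0.56 ± 0.10 (adjusted p = 0.0162) and 0.43 ± 0.08 (adjusted p = 0.0132), with no overlap. This probe set is of a kind that may bind related transcripts, and the second one rose by 0.67 and 0.48 (adjusted p = 0.00543 and 0.0113).

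Map1lc3b, which encodes LC3B, read 11.03, 10.99 and 11 with DMSO and 11.31, 11.33 and 11.22 with MEKi at 24 h, a rise of 0.28 ± 0.06 (adjusted p = 0.0289, and 0.0528 with the replicate block). At 72 h it differed by 0.16 ± 0.08 (adjusted p = 0.318).

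Gabarapl1, of the GABARAP branch of the same family, rose at 72 h. It read 10.68, 10.62 and 10.64 with DMSO and 10.86, 10.85 and 10.70 with MEKi at 24 h (0.16 ± 0.07, adjusted p = 0.208). After 72 h its arrays read 11.21, 11.07 and 11.10 with DMSO and 11.75, 11.90 and 11.68 with MEKi (0.65 ± 0.09, adjusted p = 0.00315), and its second probe set rose by 0.70 (adjusted p = 0.00441). Gabarapl2 did not pass at either time (0.21 ± 0.06 and 0.11 ± 0.08).

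Sqstm1 encodes p62, the receptor that brings ubiquitin-tagged cargo to the autophagosome and is itself degraded there. Under MEKi it was lower than DMSO at 24 h and higher at 72 h. It read 12.62, 12.59 and 12.63 with DMSO and 12.29, 12.33 and 12.45 with MEKi at 24 h, where all MEKi arrays lay below all DMSO arrays, and it fell by 0.26 ± 0.07 on the log2 scale. That call was near the threshold (adjusted p = 0.0494, and 0.0699 with the replicate block), and the mean of its 2 probe sets differed by -0.04 (adjusted p = 0.716), since the second, dim probe set was at 0.17. At 72 h it read 12.90, 12.97 and 12.89 with DMSO and 13.36, 13.65 and 13.56 with MEKi, a rise of 0.60 ± 0.09 or 1.52-fold (adjusted p = 0.00551), and its second probe set rose by 0.44 (adjusted p = 0.0426).

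The genes that start and extend the autophagosome did not pass with MEKi at either time. They were Ulk1, the kinase that starts autophagy, Becn1 and Uvrag of the lipid kinase complex, Wipi1, which binds its lipid product, and Atg5 and Atg7 of the conjugation machinery. Their log2 differences lay between -0.14 (Ulk1) and 0.10 (Becn1) at 24 h and between -0.19 (Wipi1) and 0.25 (Ulk1) at 72 h. The counts over the 11 autophagy genes therefore rest on Map1lc3a, Map1lc3b, Gabarapl1 and Sqstm1.

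With any 1 array left out, the calls at 24 h held for Neu1, Asah1 and Atp6v0d1 (highest adjusted p = 0.0190, 0.0476 and 0.0445), and each of the 15 others was lost without at least 1 array, among them Ctsl without MEKi replicate 1 (adjusted p = 0.0538) and Lgmn without MEKi replicate 2 (adjusted p = 0.0536). At 72 h the calls held for Ctsb, Neu1, Gla, Mcoln1, Sqstm1 and Gabarapl1, the highest adjusted p being 0.0293 for Sqstm1. The other 5, Ctsd, Atp6v0e, Atp6v1a, Atp6v1h and Map1lc3a, were each lost without at least 1 array. None of these called differences changed sign.

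The effect of MEKi was called different between 72 h and 24 h for 3 members, all higher at 72 h, and for 0 in the other direction, against 1.97% and 2.10% of all genes. Sqstm1 differed by 0.86 ± 0.11 (adjusted p = 0.00215), Gla by 0.67 ± 0.15 (adjusted p = 0.0252) and Gabarapl1 by 0.49 ± 0.11 (adjusted p = 0.0274). From the mean over its probe sets Gla differed by 0.40 and was not called (adjusted p = 0.117). The second probe sets of Sqstm1 and Gabarapl1 differed by 0.27 and 0.51 and did not pass (adjusted p = 0.433 and 0.0666). In 19 alternative fits the Gabarapl1 call was lost in 8 and the Gla call in 7. The Sqstm1 call held with every array left out (highest adjusted p = 0.00906). The count was 1 without DMSO replicates 1 or 2 at 24 h, DMSO replicate 3 at 72 h, MEKi replicates 1 or 3 at 24 h or MEKi replicate 2 at 72 h, and 5 without MEKi replicate 3 at 72 h. Over all probe sets 1358 were called for this difference, 668 to 1221 in the fits with 1 member called and 1558 in the fit with 5. Ctsb was called as well with the replicate block (0.43, adjusted p = 0.0420, and 0.102 without it). The median over the members was -0.10, against 0.00 over all genes, and the lowest was Naglu at -0.37 ± 0.16 (adjusted p = 0.255).

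From 24 h to 72 h without drug, 16 members rose and 3 fell, beside 14.2% of all genes called higher and 16.9% called lower. Those that rose were 9 hydrolases, Psap, Lamp2 and 5 autophagy genes, and 0 of 5 pump subunits were called from their brightest probe sets. Dimmer probe sets of Atp6v1a and Atp6v1d rose, by 0.30 and 0.35 (adjusted p = 0.00936 and 0.0131). A dim one of Atp6v1h fell by 0.39 (adjusted p = 0.0250). The median was 0.12 over the members and 0.04 over all genes. With each array centred on its own median, 11 rose and 4 fell. The share over all genes includes dim ones, while 41 members were brighter than the median probe set. Among brighter probe sets alone, 17 members rose and 3 fell, and 11274 of all 22514 were called in either direction, a like share. The comparisons over time in DMSO use the same DMSO arrays as those with MEKi. Between the harvest times technical measures moved as well. The Dap spike, an RNA added to the sample, had a 3′ minus 5′ signal of 1.42 ± 0.04 at 72 h and 2.06 ± 0.08 at 24 h (SD, 6 arrays each, exact two-sided permutation test p = 0.00216, adjusted over 7 measures 0.00379), and the Thr spike, Actb and the array median gave the same p. The macrophage and leukocyte markers summed to 391 to 406 at 24 h and 438 to 493 at 72 h with DMSO. Of these 12 markers, 3 were called higher over time in DMSO and 0 lower, with 10 above zero. In each group 5 of the 12 were above the median probe set. The part of these in the values was not tested.

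Naglu had the largest rise over time in DMSO, 1.07 ± 0.09 or 2.10-fold (adjusted p = 0.000135), followed among the hydrolases by Ctsl at 0.79 ± 0.10 (adjusted p = 0.000618) and Neu1 at 0.70 ± 0.07 (adjusted p = 0.000334). Psap rose by 0.44 ± 0.09 (adjusted p = 0.00559). Lamp2 read 12.04, 12.06 and 12 at 24 h and 12.48, 12.34 and 12.59 at 72 h (0.44 ± 0.08, adjusted p = 0.00499). Map1lc3a rose by 0.62 ± 0.08 (adjusted p = 0.000891), and Gabarapl1 and Wipi1 rose by 0.48 ± 0.07 and 0.48 ± 0.09 (adjusted p = 0.00168 and 0.00387). Wipi1 read 8.91, 8.93 and 8.84 at 24 h and 9.50, 9.39 and 9.23 at 72 h, but the mean over its probe sets differed by less and did not pass (0.09, adjusted p = 0.259). Ctss, Ctsz and Becn1 were called without the replicate block and not with it (adjusted p = 0.0536, 0.0693 and 0.0793). Between times the replicate numbers did not show pairs, so the block over time, here and under MEKi, rests on the numbers alone. The members that fell were Gla, by 0.50 ± 0.09 (adjusted p = 0.00385, but -0.09 and 0.451 from the mean over its probe sets), Gusb, by 0.48 ± 0.08 (adjusted p = 0.00257), and Ctsb, by 0.38 ± 0.08 (adjusted p = 0.00756).

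Under MEKi, 14 members rose and 2 fell from 24 h to 72 h, beside 13.5% of all genes called higher and 16% called lower. With arrays centred on their medians, 11 rose and 7 fell, so the split depends on the scaling. Among brighter probe sets alone, 15 members rose and 6 fell, and 11115 of all 22514 were called in either direction, again a like share. Sqstm1 rose most, by 1.17 ± 0.09 or 2.24-fold (adjusted p = 4.02e-05), then Gabarapl1 by 0.97 ± 0.09 (adjusted p = 6.78e-05), Neu1 by 0.72 ± 0.07 (adjusted p = 0.000142) and Naglu by 0.70 ± 0.12 (adjusted p = 0.00209). In DMSO these 4 genes rose by 0.31, 0.48, 0.70 and 1.07. Atp6v1h rose by 0.47 ± 0.09 (adjusted p = 0.00424, but 0.16 and 0.118 from the mean over its probe sets), Mcoln1 by 0.41 ± 0.09 (adjusted p = 0.00799), Atp6v1d by 0.32 ± 0.08 (adjusted p = 0.0186) and Lamp2 by 0.31 ± 0.08 (adjusted p = 0.0186). The last 2 were not called with centred arrays (adjusted p = 0.0576 and 0.0574). Atp6v1d read 12.33, 12.37 and 12.17 at 24 h and 12.69, 12.60 and 12.55 at 72 h. The members that fell were Gusb, by 0.32 ± 0.07 (adjusted p = 0.0110), and Atp6v0d1, by 0.25 ± 0.08 (adjusted p = 0.0380, and 0.0627 with the replicate block). Gla and Ctsb, which fell in DMSO, did not pass here (0.17 ± 0.11 and 0.04 ± 0.10).

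**Figure D3:**
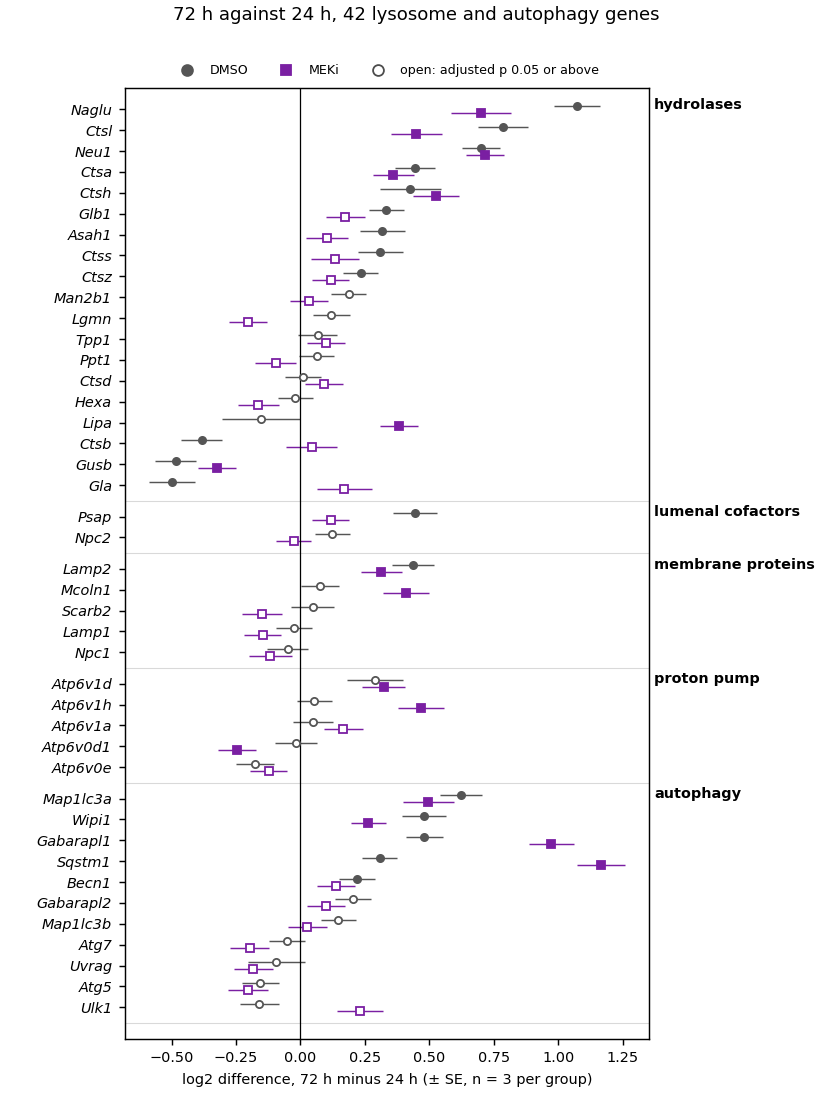
Log2 difference of 72 h minus 24 h (x axis, ± standard error, 3 arrays per group) for the 42 measured members in DMSO and in MEKi; filled symbols passed the adjusted p threshold of 0.05. Sqstm1 and Gabarapl1 lie farther right in MEKi (1.17 and 0.97) than in DMSO (0.31 and 0.48), and Gla lies at -0.50 in DMSO.

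Other genes of the same machinery were read from lists made by function, also with earlier results of these data known. Of 26 genes of the MiT/TFE factors and of mTORC1, the kinase that senses nutrients at the lysosome, 4 rose at 24 h and 2 at 72 h, and 0 fell. Over all genes 5.01% were called higher at 24 h and 4.03% at 72 h. In this list and in the hydrolase, pump, autophagy and sorting lists that follow, the counts at 72 h are too small to read against that share. The count of the sorting list at 24 h is also too small for this. Mitf read 12.71, 12.67 and 12.78 with DMSO and 13.05, 13.12 and 13.01 with MEKi at 24 h, a rise of 0.34 ± 0.06 (adjusted p = 0.0174). At 72 h its groups overlapped (-0.14 ± 0.20, adjusted p = 0.774). Tfe3 read 8.80, 8.75 and 8.82 with DMSO and 8.66, 8.81 and 8.78 with MEKi at 24 h (-0.04 ± 0.07, adjusted p = 0.781), and 9.02, 9.08 and 9.05 with DMSO and 9.29, 9.50 and 9.51 with MEKi at 72 h, a rise of 0.38 ± 0.09 (adjusted p = 0.0298). Tfeb did not pass at either time (0.19 ± 0.07 and 0.18 ± 0.09, adjusted p = 0.153 and 0.302). The Rag GTPase genes Rragd and Rraga, whose products bring mTORC1 to the lysosome, rose at 24 h by 0.47 ± 0.07 and 0.36 ± 0.08 (adjusted p = 0.00686 and 0.0311), and Slc38a9, the arginine sensor of the same complex, rose at 72 h by 0.49 ± 0.13 (adjusted p = 0.0476).

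Of 25 other hydrolases and lumenal proteins, 7 rose and 1 fell at 24 h, and 2 rose at 72 h. The acid sphingomyelinase Smpd1 read 10.62, 10.58 and 10.35 with DMSO and 11.64, 11.80 and 11.35 with MEKi at 24 h, a rise of 1.08 ± 0.12 (adjusted p = 0.00352), which is larger than the difference of any member at 24 h. The arylsulfatase Arsa rose by 0.70 ± 0.08 at 24 h (adjusted p = 0.00418). The acid alpha-glucosidase Gaa rose at 72 h by 0.71 ± 0.09 (adjusted p = 0.00176), and the acetyltransferase Hgsnat by 0.45 ± 0.10 (adjusted p = 0.0232). Hgsnat was counted in this list although its product is a membrane enzyme, not a hydrolase or a lumenal protein. Of 19 other membrane proteins, 6 rose at 24 h and 7 at 72 h. They included the cystine exporter Ctns (0.67 ± 0.07, adjusted p = 0.00311) and the chloride-proton exchanger Clcn7 (0.41 ± 0.08, adjusted p = 0.0170) at 24 h, and the channel Mcoln2 (0.89 ± 0.16, adjusted p = 0.00916) and Cd68 (0.66 ± 0.15, adjusted p = 0.0279) at 72 h. Cd68, also a macrophage marker, had a mean below that of the median probe set and read 4.78, 4.77 and 4.58 with DMSO and 5.40, 5.68 and 5.02 with MEKi.

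Of 16 other pump subunits, 5 rose at 24 h and 2 at 72 h. The V0 subunit Atp6v0a1 rose at both times, by 0.39 ± 0.08 and 0.60 ± 0.08 (adjusted p = 0.0200 and 0.00274), Atp6v0b rose at 24 h by 0.42 ± 0.06 (adjusted p = 0.00885), and Atp6v0a2 at 72 h by 0.64 ± 0.08 (adjusted p = 0.00208). Of 39 other autophagy genes, 5 rose at 24 h and 2 at 72 h, the latter a share near the 4.03% of all genes. Gabarap, of the same family as Gabarapl1, rose at both times, by 0.57 ± 0.07 and 0.34 ± 0.08 (adjusted p = 0.00508 and 0.0287). Bnip3, a mitophagy receptor, rose at 24 h by 0.56 ± 0.09 (adjusted p = 0.00877), and Plekhm1, an adaptor for fusion with the lysosome, at 72 h by 0.76 ± 0.11 (adjusted p = 0.00352). Of 11 genes of hydrolase sorting and of protease inhibitors, 1 rose at each time, Gnptg of the enzyme that makes the mannose 6-phosphate tag at 24 h (0.36 ± 0.06, adjusted p = 0.0128) and the cathepsin inhibitor Cstb at 72 h (0.41 ± 0.08, adjusted p = 0.0151). Of 10 genes of ERK output, 8 fell at 24 h, and 5 fell and 1 rose at 72 h. The median log2 differences were 0.12, 0.19, 0.19, 0.17, 0.05, 0.12 and -1.14 at 24 h and 0.06, 0.18, 0.26, 0.18, 0.07, 0.09 and -0.55 at 72 h for the MiT/TFE, hydrolase, membrane, pump, autophagy, sorting and ERK output lists, in that order.

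**Figure D4:**
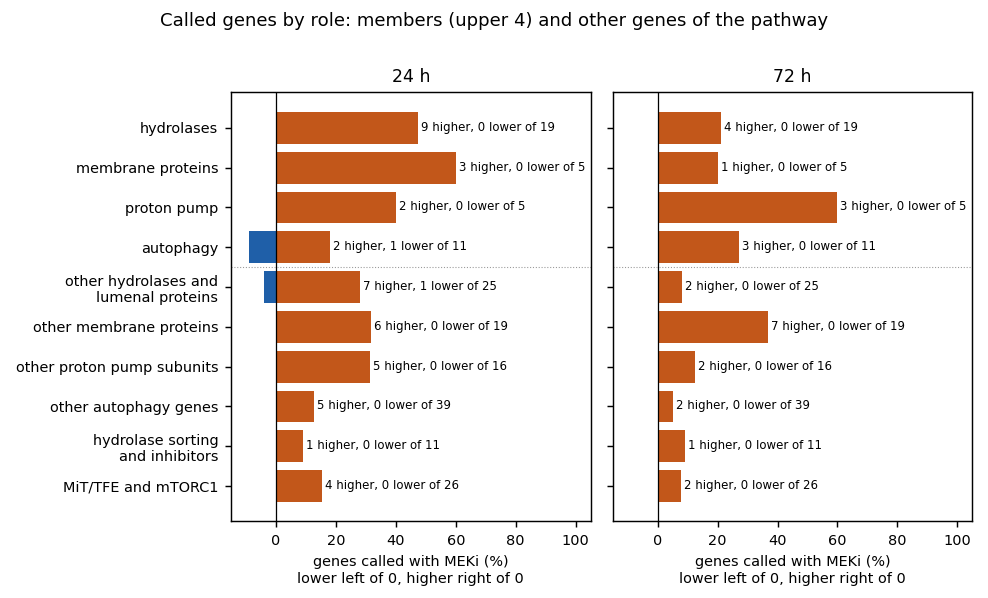
Percent of measured genes called higher (right of zero) or lower (left of zero) with MEKi at 24 h and at 72 h, for the members by role and for the other genes of the same machinery, by list; the 2 lumenal cofactors are not drawn. Among members at 24 h the membrane proteins reach 3 of 5 and the hydrolases 9 of 19, and at 72 h the pump subunits reach 3 of 5.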

How the data were processed

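RNA of 12 samples of B16-OVA cells was measured, 1 array each. According to the labels, 200 ng of total RNA went into labelling with a 3′ IVT kit. The authors normalized the arrays by RMA, and the deposited values are log2 signals with 2 decimals, from 2.21 to 14.47. The software version is not given in the sources used here. RMA makes array distributions alike, so a shift of all genes would not show. Values were used as deposited, with groups from the sample titles.

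Of 45101 probe sets, 64 controls were left out. Of the other 45037, the annotation paired 34945 with 1 gene, 932 with several and 9160 with none. Among the members' probe sets 4 had the suffix that marks probes shared by several transcripts and 1 the suffix for probes that may bind other genes, and 30 members had several probe sets of their own. Pairs of groups were compared with limma 3.58.1 in R 4.3.3 (lmFit and eBayes, two-sided, Benjamini-Hochberg over 45037 probe sets, threshold 0.05), each on its own 6 arrays with no covariates, and the difference of the MEKi effects as a contrast on all 12. The code was tested on simulated data. The members and lists were chosen with earlier results of these data known. Array values are given for up to 3 called members per role and MEKi comparison with the largest difference, up to 2 over time and in the difference, and for Sqstm1, Ctss and Mcoln1. From each other list up to 2 called genes per MEKi comparison are named, with Mitf, Tfeb, Tfe3, Dusp6 and Spry4 in any case. Genes named for a missed call or a dimmer probe set were chosen after their values were seen.

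Whether the replicate numbers pair arrays was checked from the arrays' deviations from their group means over brighter probe sets. The 6 same-numbered pairs within a time correlated at 0.207 to 0.307 and the 12 others at -0.288 to 0.002, so the number was used as a block in an alternative fit. Between times, arrays of the same treatment and number correlated at -0.015 to 0.202, which does not show pairs. The alternative fit used the number as a block there too.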

Additional observations from a re-analysis of the deposited data

Results flagged for a closer look

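These genes had a MEKi effect that differed between 72 h and 24 h in the contrast on all 12 arrays, with limma adjusted p under 0.05. Among the members they were Sqstm1 (0.86 ± 0.11), Gla (0.67 ± 0.15) and Gabarapl1 (0.49 ± 0.11). Sqstm1 went from -0.26 at 24 h to 0.60 at 72 h, Gla from 0.19 to 0.86 and Gabarapl1 from 0.16 to 0.65. These values are from the brightest probe sets, and the second probe set of each gene did not pass for this contrast.

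Among the other genes of the machinery the effect was higher at 72 h for Mcoln2 (1.23 ± 0.21, adjusted p = 0.00759, from -0.34 to 0.89), Hgsnat (0.75 ± 0.12, adjusted p = 0.00471, from -0.30 to 0.45), Wipi2 (0.48 ± 0.11, adjusted p = 0.0345, from -0.15 to 0.33), Atp6v0a2 (0.44 ± 0.10, adjusted p = 0.0303, from 0.19 to 0.64) and Tfe3 (0.42 ± 0.11, adjusted p = 0.0493, from -0.04 to 0.38). It was lower at 72 h for Bnip3 (-1.55 ± 0.34, adjusted p = 0.0250, from 0.56 to -0.99), Smpd1 (-0.85 ± 0.16, adjusted p = 0.0123, from 1.08 to 0.23), Rragd (-0.52 ± 0.12, adjusted p = 0.0345, from 0.47 to -0.05) and Ctsc (-0.49 ± 0.10, adjusted p = 0.0191, from 0.38 to -0.11). The Bnip3 arrays with MEKi at 72 h were widely spread, at 12.05, 11.12 and 12.43, beside 13.09, 12.58 and 12.91 with DMSO.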

How the results depend on the processing

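No member named for a call reversed its direction in any alternative. With the replicate block, 13 members rose and 0 fell with MEKi at 24 h and 1 fell over time under MEKi, beside 17, 1 and 2, and, apart from the genes named with a blocked p in the report, the block changed no call of a member. With all 12 arrays in 1 fit, 0 fell at 24 h and 5 fell over time under MEKi. Among brighter probe sets only, 2 fell at 24 h, the difference had 6 higher and 1 lower in place of 3 and 0, and 6 fell over time under MEKi. A trended and robust prior gave 27 higher and 2 lower at 24 h, 5 higher and 2 lower in the difference and 7 lower over time under MEKi. Array weights gave 5 higher in the difference, averaging each gene's own probe sets 2 lower in it, and centring the arrays 7 lower over time under MEKi. The causes of these shifts were not tested. Leaving out 1 array gave 4 to 21 higher and 0 to 1 lower at 24 h, 6 to 9 and 0 to 0 at 72 h, 1 to 5 and 0 to 0 in the difference, 11 to 15 and 3 to 3 over time in DMSO, and 11 to 15 and 1 to 2 over time under MEKi. Over all probe sets, 3801 were called at 24 h, but 6403 of the brighter ones, 6623 with the trended prior and 5890 with array weights, and at 72 h 3260, but 5373 with all 12 arrays. The difference had 1358, and 2301, 2106 and 2606 among brighter probe sets, with the trended prior and with array weights. With 3 arrays per group, small changes of dim genes such as Ctss are not resolved.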

Other observations

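Several members had probe sets that differed in their calls. For Psap the second probe set rose by 0.56 at 24 h (adjusted p = 0.00810) and by 0.03 at 72 h (adjusted p = 0.883), and the difference of these effects passed (-0.53, adjusted p = 0.0197), unlike that of the brighter one (-0.33, adjusted p = 0.136). For Tpp1, a lysosomal peptidase, a dimmer probe set rose at 24 h by 0.47 (adjusted p = 0.00888), while the brightest missed the threshold at 0.24 (adjusted p = 0.0513). A dimmer Ctsz probe set rose at 24 h by 0.25 (adjusted p = 0.0388), beside 0.14 for the brightest (adjusted p = 0.196). A dimmer Npc2 probe set rose at 24 h by 0.46 (adjusted p = 0.0252), and a dimmer Scarb2 probe set by 0.39 (adjusted p = 0.0208). For Ctsb a dimmer probe set rose by 1.06 at 72 h (adjusted p = 0.00795), beside 0.68 for the brightest.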
